A study of Mus musculus with 2 samples.

Results

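The genes described here are the heat shock protein, DnaJ and TRiC chaperone genes expressed in mouse cerebral cortex. They were chosen by name (Hspa, Hspb, Hspd, Hspe, Hsph, Hsp90, Dnaja, Dnajb, Dnajc, Cct2 to Cct8 and Tcp1), by being typed as protein-coding in the deposited annotation, and by having at least 10 reads summed over both libraries. The rule gave 68 genes of 11838 annotated genes with at least 10 reads. The tissue was left cerebral cortex from mice of strain B6NCrl, aged 6 months, with no treatment or genotype named in the labels. It was sequenced as long reads in 2 libraries of 1 group, called replicate 1 and replicate 2, so no condition was compared. Both tissue samples carry a single donor record, so the replicates may not be separate animals and their spread may be partly technical. A label calls the tissue male, while the field for sex says it was not collected.

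Chaperones help other proteins reach and keep their folded shape. Hsp70 proteins bind short unfolded stretches in a cycle driven by ATP, DnaJ proteins deliver clients and start that cycle, and Hsp110 proteins reload Hsp70 with ATP. Hsp90 acts later on signalling proteins, TRiC is a closed ring that folds actin and tubulin, and neurons use some DnaJ proteins at the presynaptic terminal to keep vesicle proteins folded and to strip clathrin from vesicles.

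The libraries held 1306424 reads in replicate 1 and 1304133 in replicate 2. A level is given as CPM, the reads scaled to a common library total, with no length term. This assumes that 1 long read stands for 1 transcript molecule, which was not tested. On this scale 1 read was worth 0.765 CPM and 0.767 CPM. The tissue label was checked against marker lists. The neuron list (Snap25, Rbfox3, Slc17a7, Gad1) summed to 3772 and 3346 CPM in replicates 1 and 2. Of this Snap25 was 3163 and 2940 CPM, while Rbfox3 had 439 and 266 reads, Slc17a7 130 and 36, and Gad1 227 and 227. The astrocyte list (Aldoc, Aqp4, Gfap, Slc1a2) summed to 2383 and 2481 CPM, with 2265 and 2230 reads for Aldoc, 90 and 120 for Aqp4, 110 and 63 for Gfap and 648 and 822 for Slc1a2. Single markers thus differed more than the sums. The microglia list summed to 279 and 330.5 CPM, the endothelial list to 173 and 206 CPM and the choroid plexus list to 62.0 and 39.9 CPM. All 4 genes of the testis germ cell list were without a read. Of the skeletal muscle list Ckm and Myh4 were without a read, while Acta1 had 45 and 57 reads and Mylpf 3 and 8. In bulk tissue, fewer cells of a type and less RNA per cell cannot be told apart.

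Of 83 annotated protein-coding genes that match the name pattern, 76 had a read. The 7 without one were Cct8l1, Dnajb7, Dnajb8, Dnajc22, Dnajc5b, Dnajc5g and Hspb9, for each of which 0 reads allow a level of up to 2.30 CPM. Just inside the limit lay Hspb6 with 8 and 4 reads, Dnajc25 with 13 and 2, and Hspbap1 with 7 and 8. Just outside lay Hspb3 with 2 and 7 reads, Hspb2 with 2 and 4, and Hspa12b with 1 and 3. Cct6a, which encodes the zeta subunit of TRiC, had 316 and 324 reads but stood outside the rule, because the annotation types it as a processed transcript.

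The 68 genes took 1.45% of all reads in replicate 1 and 1.51% in replicate 2, a summed level of 14828 ± 415 CPM (SD, n = 2). Levels spanned 4.60 CPM for Hspb6 to 4728 CPM for Hspa8, with a median of 63.0 CPM, and 26 genes were above 100 CPM in both libraries. Hspa8 and Hsp90ab1 alone held 49.3% of the chaperone reads in replicate 1 and 48.6% in replicate 2. Reads were part of the rule, so these levels are a description.

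**Figure D1:**
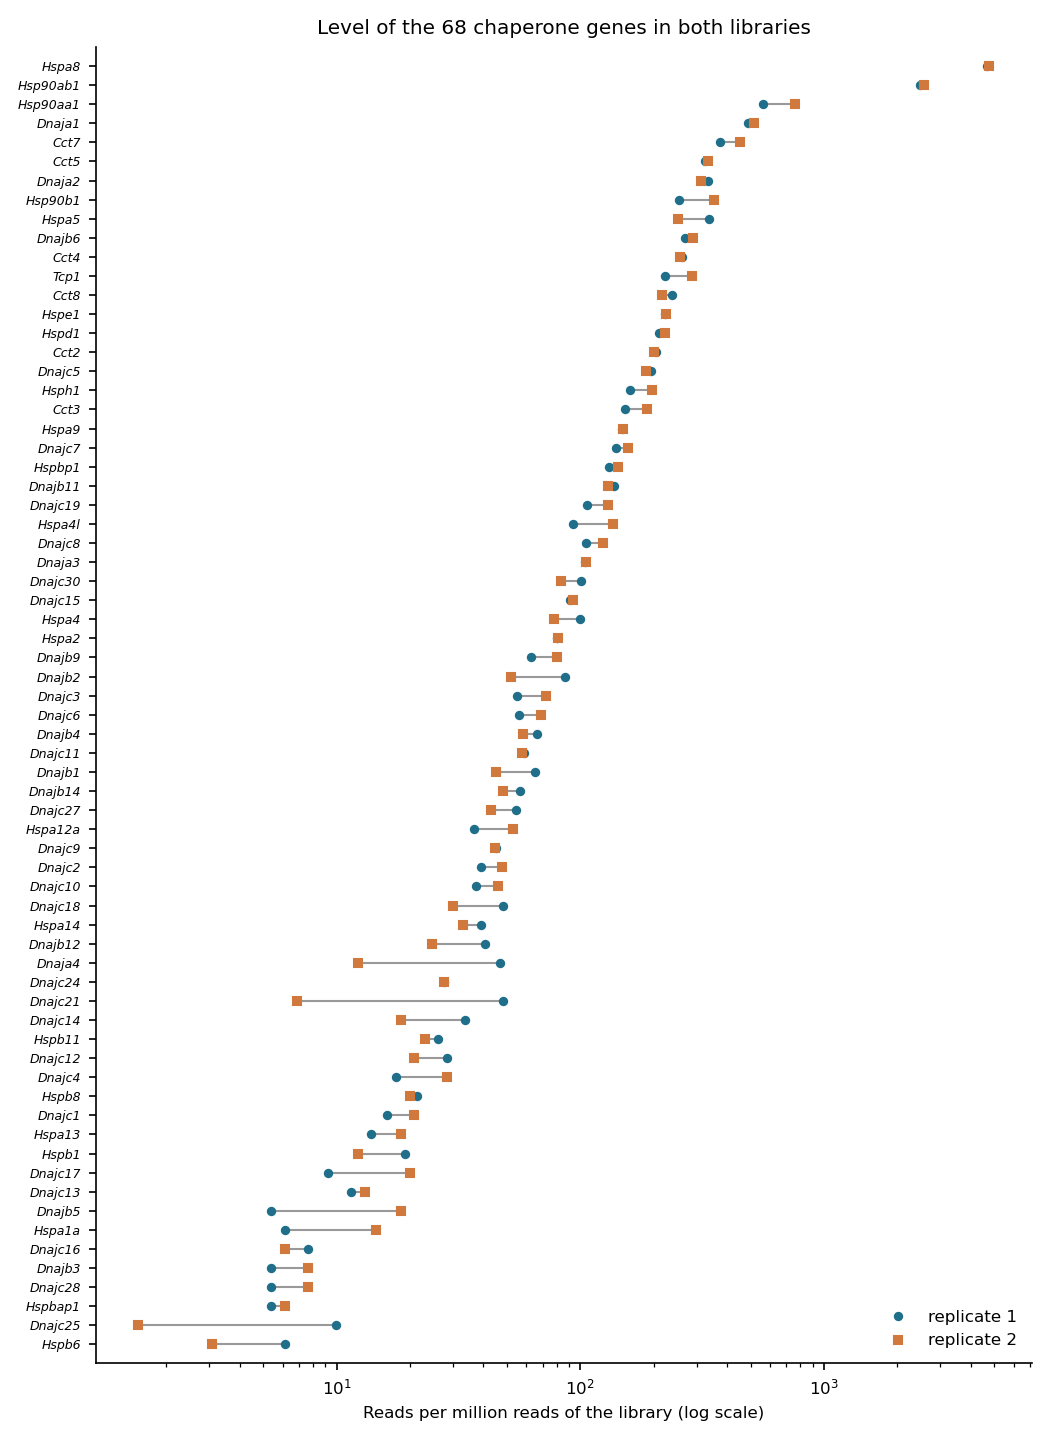
Level of each of the 68 chaperone genes in replicate 1 (circles) and replicate 2 (squares), in CPM on a log axis, ordered by the mean. Hspa8 and Hsp90ab1 have means of 4728 and 2529 CPM, and the points lie far apart for Dnaja4, Dnajc21, Dnajb5 and Dnajc25.

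The Hsp70 family had its reads concentrated in a single gene. Hspa8, the constitutive cytosolic Hsp70 (Hsc70), had 6115 reads in replicate 1 and 6228 in replicate 2, a level of 4728 ± 67.1 CPM (SD, n = 2). Hspa5, the Hsp70 of the endoplasmic reticulum (BiP), had 442 and 327 reads, 295 ± 61.9 CPM. Hspa9, the mitochondrial Hsp70 (mortalin), had 193 and 195 reads, 149 ± 1.27 CPM, and did not separate between the libraries. The heat-inducible cytosolic Hspa1a had 8 and 19 reads, 10.3 ± 5.97 CPM. Its near copy Hspa1b had 0 and 1 reads and Hspa1l had 2 and 0. The transcripts of Hspa1a and Hspa1b are 99.2% identical over 2201 bases, so the split of reads between them is uncertain.

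Hspa2 is an Hsp70 gene best known from male germ cells. It had 105 reads in replicate 1 and 106 in replicate 2, 80.8 ± 0.642 CPM, above Hspa1a in both libraries. Of these, 100 and 102 reads lay on the unspliced transcript Hspa2-202, which spans chr12:76404409-76406934 on mm10, while Prm1, Prm2, Tnp1 and Odf1 of the germ cell list had none. Hspa12a, a distant relative of Hsp70, had 48 and 69 reads, Hspa14, which works at the ribosome, 51 and 43, and Hspa13, a member of the endoplasmic reticulum, 18 and 24.

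The Hsp110 family, which exchanges nucleotide on Hsp70, was led by Hsph1 with 209 and 258 reads (179 ± 26.8 CPM). Hspa4l followed with 122 and 177 reads and Hspa4 with 130 and 102, so the order of these 2 genes was opposite in the 2 libraries.

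The small heat shock proteins hold unfolded clients without using ATP, and they were the lowest of the families. Hspb8 had 28 and 26 reads (20.7 ± 1.06 CPM), Hspb1 had 25 and 16 (15.7 ± 4.86 CPM) and Hspb6 had 8 and 4. Cryab, a small heat shock protein that the name pattern does not reach, had 315 and 261 reads (221 ± 29.0 CPM), more than the whole list of Hspb genes together at 47.1 ± 4.82 CPM.

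With all reads counted, the mitochondrial chaperonin pair lay at almost the same level. Hspd1 (Hsp60), whose rings enclose the client, had 275 and 290 reads (216 ± 8.39 CPM), and Hspe1 (Hsp10), the lid of that ring, had 292 and 293 (224 ± 0.820 CPM). The ranges of the 2 genes over the libraries lay side by side without overlap. The near match depends on the count. With only reads whose model ends in the last exon, as described below, Hspd1 was at 118 ± 1.77 CPM and Hspe1 at 224 ± 1.36 CPM. The genes run away from each other on chromosome 1 of mm10, with 107 bases between the annotated starts of Hspd1-201 at 55088024 and Hspe1-201 at 55088132. A shorter Hspd1 transcript of 863 bases, Hspd1-202, starts further upstream at 55088243, beyond the start of Hspe1-201.

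That shared stretch holds a heat shock element, the site of heat shock factors, and it is shown because a single run of letters serves both genes. The element was searched as 3 units, GAA and TTC in turn with 2 bases between them, in either order and so on both strands, in RefSeq promoter windows (GRCm38.p6) from 250 bases before to 50 after each start. The stretch is printed on the strand of Hspe1, chr1:55088044-55088091, with 2 overlapping matches in capitals, and it ends 57 bases before the RefSeq start of Hspe1 used in the window.
Hspe1 and Hspd1 promoter: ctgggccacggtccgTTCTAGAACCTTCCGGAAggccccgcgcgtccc
Promoter windows matched 56 of the 68 genes, of which 4 (7.14%) held the element: Dnajb6, Hspd1, Hspe1 and Hsph1. Among all 27025 genes with a window 179 did (0.662%). A match is a description of letters. No match in a window, as for Hspa1a, says only that these letters are not there.

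The Hsp90 family had 3 genes. Hsp90ab1, the constitutive cytosolic form, had 3243 and 3359 reads (2529 ± 66.0 CPM). Hsp90aa1, the inducible cytosolic form, had 734 and 988 (660 ± 138 CPM), and Hsp90b1, the form of the endoplasmic reticulum (Grp94), had 333 and 463 (305 ± 70.8 CPM). Replicate 2 was the higher library for all 3 genes.

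Reads on known transcripts were a small share in all Hsp90 genes. Reads on a known transcript, that is with every annotated intron of it, made up 10.3% and 5.15% of Hsp90ab1 reads, 8.31% and 8.81% of Hsp90aa1 reads and 6.31% and 4.32% of Hsp90b1 reads. Most of the known Hsp90aa1 reads, 49 and 79, were on Hsp90aa1-206, a retained-intron transcript of 924 bases, and the coding Hsp90aa1-202 of 3281 bases had 7 and 1. In Hspa8 the known class held 88.3% and 84.7%. The rest of the Hsp90 reads fell almost wholly on incomplete matches (ISM), which carry a run of consecutive introns of an annotated transcript but not all of them.

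The Hsp90 models ended early, in 1 main exon each. In Hsp90ab1, 75.7% of reads in replicate 1 and 76.9% in replicate 2 were on models that ended in exon 6 of 11, against 20.6% and 19.1% in the last exon. In Hsp90aa1 the main early exon was exon 5 of 11, with 54.1% and 40.8% of reads, and a further 14.3% and 18.4% ended in exon 9. In Hsp90b1 the main early exon was exon 7 of 18, with 60.7% and 59.2%. In Hspa8, 99.2% and 98.9% of reads ended in the last exon, exon 9. Exon 6 of Hsp90ab1 closes at base 1062 of 2520. The early model with most reads ended at chr17:45570445 in Hsp90ab1 and at chr12:110694175 in Hsp90aa1, which are the ends of the short annotated transcripts Hsp90ab1-204 and Hsp90aa1-206. In Hsp90b1 it ended at chr10:86698319, the end of exon 7 itself. Because these model ends fall on annotated positions, the exon is known but not the base at which a read stopped.

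**Figure D2:**
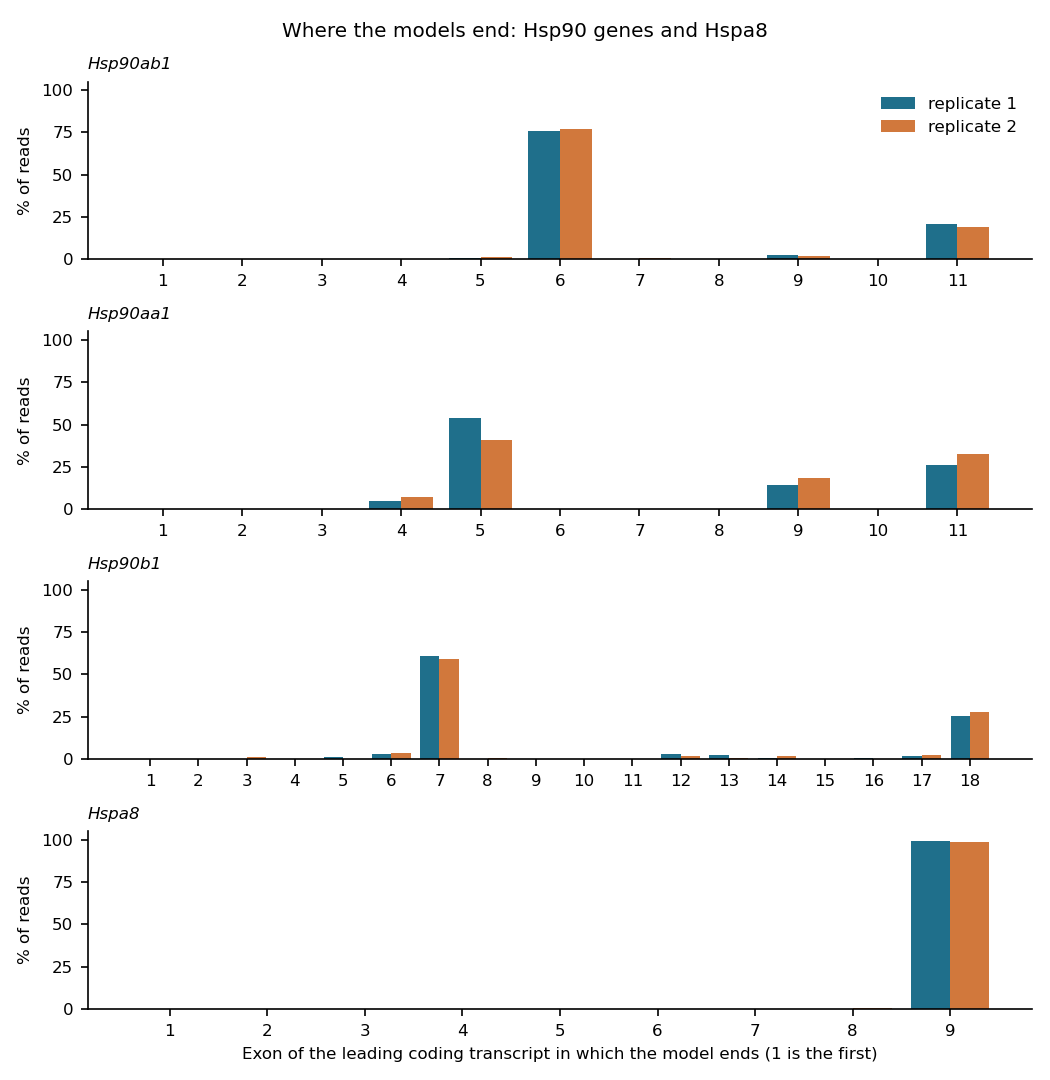
Share of each gene's reads, in percent, by the exon in which the read's model ends, for Hsp90ab1, Hsp90aa1, Hsp90b1 and Hspa8, with a bar for each library. The highest bar stands at exon 6, 5 and 7 in the Hsp90 genes and at the last exon, 9, in Hspa8.

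Hsp90 proteins carry a charged linker rich in lysine, whose codons are AAA and AAG, between their first and middle domains. The early ending exons hold windows rich in A, broken by other bases, which are shown because all 3 genes have one there. In each the 20-base window with most A is in capitals, with up to 20 coding bases either side inside the exon, and for Hspa8 the richest window of all exons before its last is given in the same way. The stretches are chr17:45570383-45570442 (minus strand, exon 6 of Hsp90ab1-201), chr12:110694240-110694299 (minus strand, exon 5 of Hsp90aa1-202), chr10:86698319-86698367 (minus strand, exon 7 of Hsp90b1-201) and chr9:40802509-40802568 (plus strand, exon 3 of Hspa8-201), on mm10 and from GENCODE M21 transcripts.
Hsp90ab1: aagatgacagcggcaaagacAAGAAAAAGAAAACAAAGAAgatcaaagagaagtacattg
Hsp90aa1: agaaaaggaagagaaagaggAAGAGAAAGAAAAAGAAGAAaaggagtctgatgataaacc
Hsp90b1: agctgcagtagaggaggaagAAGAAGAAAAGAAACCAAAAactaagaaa
Hspa8: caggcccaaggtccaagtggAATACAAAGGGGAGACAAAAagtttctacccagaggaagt
The window is 80% A in Hsp90ab1, 75% in Hsp90aa1 and Hsp90b1, and 60% in Hspa8. In each Hsp90 gene no other exon before the last has a richer window. The window lies inside the early model with most reads in Hsp90aa1 and Hsp90b1. In Hsp90ab1 it lies just beyond the end of that model, at chr17:45570445, but in the same exon.

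Outside the Hsp90 family this was seen in some early-ending chaperone genes and not in others. A chain was counted if it kept the first introns of the gene's leading coding transcript and stopped before the last. Among the chaperone genes with at least 100 reads, 8 had at least 25% of their reads on such chains. In 5 of these (62.5%) the main ending exon held the window richest in A of the exons before the last, namely the 3 Hsp90 genes, Hspa4l and Dnajc3, a helper of BiP. In the other 3, Hspa4, Dnajc8 and Dnaja1, it did not. A tie was counted as richest. Among 213 other genes chosen the same way, 125 (58.7%) had their richest window there. The measure was chosen after the Hsp90 windows had been seen. The 62.5% includes these 3 genes, so it allows no reading beside the 58.7%. The count missed some early ends. In Dnajc2 the leading coding transcript was the 5-exon Dnajc2-202, so an early-ending model of 9 exons, with 32 and 28 reads, was left out. Hspd1 was also left out, although 38.8% of its reads were on early-ending chains of any annotated transcript. Whether A in the RNA had a part in where the reads ended was not tested.

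Early ends changed the levels that a count of ends would give. Counting only reads whose model ends in the last exon put Hsp90ab1 at 502 ± 14.5 CPM in place of 2529 CPM, Hsp90aa1 at 197 ± 73.4 CPM in place of 660 CPM and Hsp90b1 at 64.3 and 99.7 CPM in the 2 libraries in place of 255 and 355 CPM. Hspa8 stayed at 4683 CPM. This count was chosen after the early ends had been seen. Under that count Hsp90aa1 moved from rank 3 to rank 13 of the 68 genes and Hsp90b1 from rank 8 to rank 27. Of 43 chaperone genes with at least 100 reads and more than 1 exon, 7 had under 50% of reads ending in the last exon in both libraries (16.3%), beside 293 of 4007 genes of all kinds (7.31%).

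Over all 68 genes, known transcripts held 61.3% of reads in replicate 1 and 56.4% in replicate 2, beside 71.9% and 67.7% over all annotated genes. Incomplete matches held 33.3% and 37.8%, beside 13.7% and 15.8%. Without Hspa8 and the Hsp90 genes the incomplete share was 21.4% and 24.5%. Of 45 chaperone genes with at least 100 reads, 26 had over 50% of reads on known transcripts in both libraries and 11 had over 50% on incomplete matches in both.

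**Figure D3:**
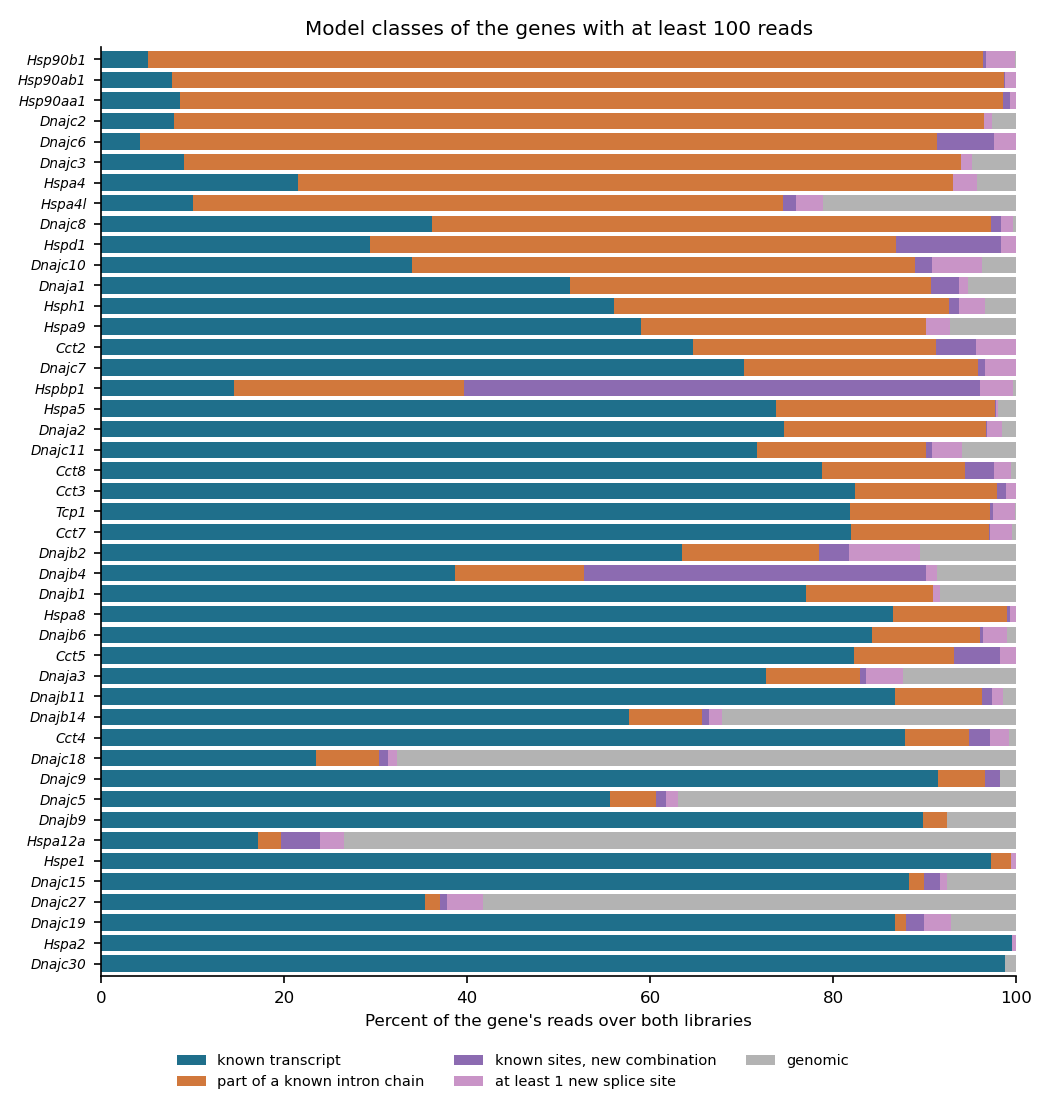
Share of reads over both libraries, in percent, on each class of model for the 45 chaperone genes with at least 100 reads, ordered by the share of incomplete matches. The 3 Hsp90 genes are at the top with about 90% incomplete matches. Hspbp1 and Dnajb4 have the longest bars for known sites in a new combination.

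The DnaJ proteins of class A, the closest relatives of the bacterial form, were led by Dnaja1 with 637 and 673 reads (502 ± 20.1 CPM). Dnaja2 had 436 and 409 reads (324 ± 14.2 CPM), and the mitochondrial Dnaja3 had 137 and 138 (105 ± 0.672 CPM). The levels of these 3 genes did not overlap. Dnaja4 had 61 and 16 reads and is described with the differences between the libraries.

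In class B, Dnajb6, a suppressor of aggregation of glutamine-rich proteins, was highest with 353 and 378 reads (280 ± 13.9 CPM). Dnajb11, a BiP partner, had 180 and 169 reads, Dnajb9, another of the endoplasmic reticulum, 82 and 105, Dnajb2, which is enriched in neurons, 113 and 68, and Dnajb4 87 and 76. Dnajb6 has a short and a long protein form. The short one (242 residues, Dnajb6-203) held 264 and 298 reads and the long one (365 residues, Dnajb6-201) 24 and 5. The other class B genes ranged from Dnajb3, with 7 and 10 reads, to Dnajb1, a heat-inducible partner of Hsp70, with 85 and 59. Dnajb14 and Dnajb12, both of the endoplasmic reticulum membrane, and Dnajb5 lay between them.

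In class C, which groups DnaJ proteins with varied domains, Dnajc5 was highest. It encodes the cysteine string protein of synaptic vesicles and had 254 and 242 reads (190 ± 6.26 CPM). Dnajc7, a bridge between Hsp70 and Hsp90, had 183 and 204 reads, Dnajc19 of the mitochondrial import motor 139 and 170, Dnajc8, tied to splicing, 138 and 161, and the mitochondrial Dnajc30 132 and 109. Dnajc6, the neuronal auxilin that recruits Hsc70 to clathrin coats, had 73 and 90 reads (62.4 ± 9.29 CPM), and Dnajc13, which acts on endosomes, had 15 and 17. Below Dnajc30 in order of reads, Dnajc15 had 118 and 122, followed by Dnajc3, Dnajc6, Dnajc11, Dnajc27, Dnajc9, Dnajc2, Dnajc10, Dnajc18, then Dnajc24 and Dnajc21 with equal totals, Dnajc14, Dnajc12, Dnajc4, Dnajc1, Dnajc17, Dnajc13, Dnajc16, Dnajc28 and Dnajc25. Dnajc16 had 10 and 8 reads and Dnajc28 had 7 and 10, while Dnajc25, the lowest, had 13 and 2.

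The vesicle and clathrin genes were read in different ways. Of the Dnajc5 reads, 84 and 99 were in the genomic class, which overlaps the gene without matching its exon structure, while 141 and 108 were on Dnajc5-201, which has a transcript of 6578 bases. Of the Dnajc6 reads, 70 and 88 ended in the last exon but only 1 and 3 carried the first intron of Dnajc6-201 (19 exons, 5258 bases). Dnajc13-203 has 56 exons in 6747 bases, and no read of Dnajc13 was on a known transcript.

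TRiC has 8 subunits, each from its own gene, and 7 are among the 68 genes. Cct7 was highest with 490 and 589 reads (413 ± 54.1 CPM) and Cct3 lowest with 199 and 244 (170 ± 24.6 CPM), a ratio of 2.44 between the highest and the lowest. Between them lay Cct5 with 424 and 438 reads, Cct4 with 343 and 335, Tcp1 with 291 and 375, Cct8 with 311 and 283, and Cct2 with 266 and 261. With Cct6a at 245 ± 4.64 CPM included, 2 of the 7 steps in this order overlapped between libraries, from Cct4 to Tcp1 and from Tcp1 to Cct6a. The other steps were apart in both libraries, the first of them from Cct7 to Cct5. The testis form Cct6b had 1 and 0 reads.

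**Figure D4:**
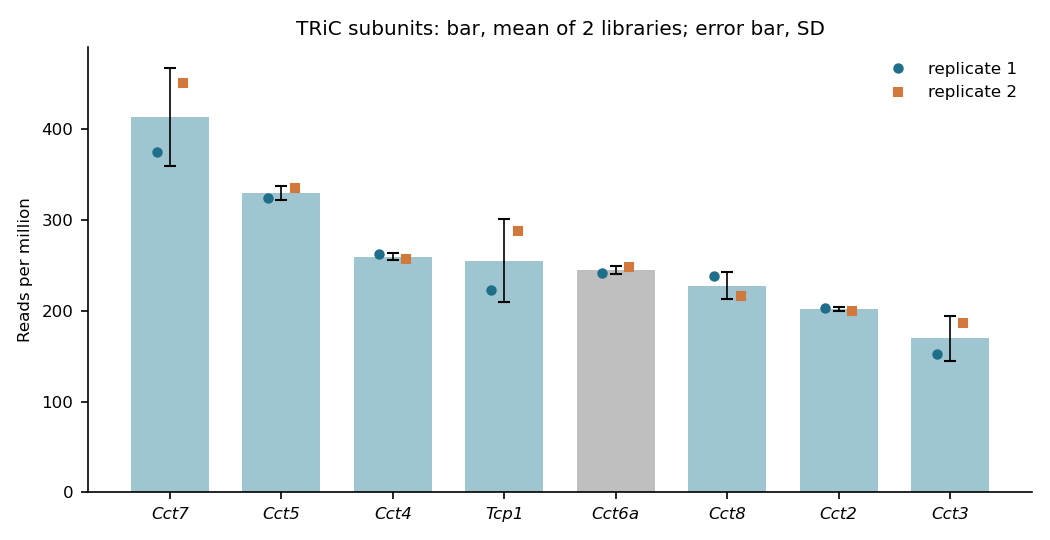
Level of the 8 TRiC subunit genes in CPM. Bars are the mean of 2 libraries, error bars the SD, and points the libraries. Cct6a (grey) is outside the rule and lies between Tcp1 and Cct8, and the bars fall from 413 for Cct7 to 170 for Cct3.

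In TRiC genes, known transcripts held between 64.7% of reads for Cct2 and 87.9% for Cct4. Cct6a stood apart: 3.28% of its reads were on a known transcript and 64.5% on models in which at least 1 splice site was not annotated, led by a chain of 13 exons with 198 and 161 reads.

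A few genes divided their known reads over more than 1 transcript. In Hspa5, Hspa5-201 held 197 and 128 reads and Hspa5-202 held 127 and 99. Hspa5-202 keeps the intron of 82 bases at chr2:34772147-34772228, which lies before the first coding base at 34772322, and both encode 655 residues. Dnajb2-207 (277 residues) had 36 and 19 reads, Dnajb2-202 (277 residues) 18 and 10 and Dnajb2-210 (324 residues) 10 and 11, so the longer protein form was the smaller part in both libraries. Dnajb12-205 had 20 and 14 reads and Dnajb12-204 had 12 and 8.

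Among genes with at least 100 reads, Hspbp1, a nucleotide exchange factor for Hsp70, had the highest share of reads on structures outside the annotation. New combinations or new sites made up 60.1% of its reads over both libraries. Its first intron began at the same donor in 3 forms, which ended before exon 2 at chr7:4684482, chr7:4684566 and chr7:4684569, on the minus strand. These were used by 53 and 48, 46 and 53, and 29 and 25 reads. All 3 junctions are annotated, in Hspbp1-203, Hspbp1-204 and Hspbp1-201, but the first 2 are annotated only in shorter transcripts. All 3 lie before the first coding base, 4684475. Hspbp1-201, the only known transcript with reads, had 28 and 24.

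Dnajb4 had 38.7% of reads on such models. There, a first exon at chr3:152209835-152210083 was joined directly to the exon that ends at 152186983 in 32 and 16 reads, a junction not in the annotation. It leaves out the exon with the annotated first coding base, 152193587. In Hspd1 the share was 13.1%, in Dnajb2 11.0% and in Cct2 8.73%. In Hspd1 the upstream first-exon donor of Hspd1-202 was used by 55 and 80 reads and that of Hspd1-201 by 161 and 147, with the first coding base downstream of both.

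The 2 libraries were compared gene by gene with an exact two-sided binomial test, which sets the difference against counting noise and tests no condition. P-values were adjusted by Benjamini and Hochberg's method over all 11838 genes tested. Calls needed an adjusted p under 0.05 together with a ratio of at least 2-fold. Lower in replicate 2 were 2 of the 68 genes, while 5.44% of all tested genes were called lower. Higher in replicate 2 was 1 gene, against 1.61% of all tested genes. Without a size limit, 10 of 68 were under an adjusted p of 0.05 (14.7%, and 12.8% of all tested genes). These shares were close to those over all genes or below them. The median log2 ratio was 0.02 in the chaperone genes and 0.0025 in all tested genes. The chaperone genes were read more deeply, with a median of 164.5 reads against 61. At 100 reads or more, none of 45 chaperone genes was called, beside 6.63% of all tested genes lower and 1.25% higher. At that depth 15.6% of chaperone genes were under an adjusted p of 0.05, beside 23.3% of all tested genes.

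**Figure D5:**
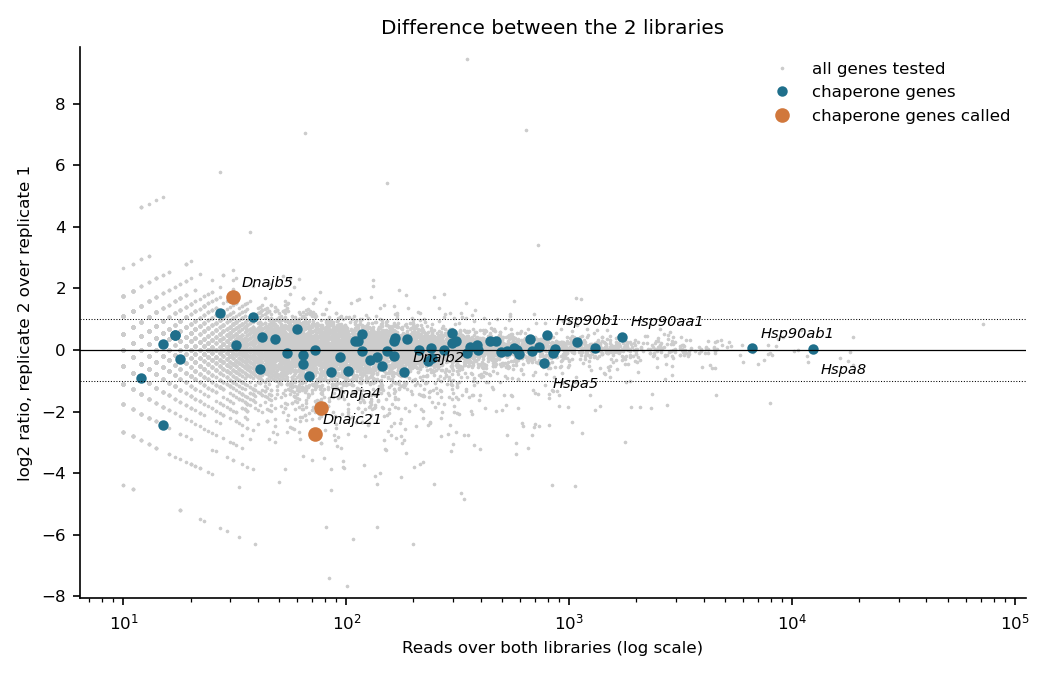
log2 ratio of replicate 2 over replicate 1 against the reads over both libraries (log axis), with 0.5 counts added. Grey dots are the 11838 genes tested, blue circles the chaperone genes and orange circles the 3 called, with dotted lines at a 2-fold ratio. Dnajb5 lies at 1.71, Dnaja4 at -1.90 and Dnajc21 at -2.74, while Hspa8 and Hsp90ab1 lie near 0.

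Dnaja4 was lower in replicate 2, with 61 reads in replicate 1 and 16 in replicate 2 (log2 ratio -1.90, adjusted p 6.2e-06, exact binomial test). Reads with its first intron numbered 51 and 2 and reads ending in its last exon 60 and 16, of which 5 and 8 lay on the last exon alone. Dnajc21, a cytosolic DnaJ protein that acts in ribosome maturation, had 63 and 9 reads (log2 ratio -2.74, adjusted p 1.7e-09, exact binomial test). There, reads with the first intron numbered 56 and 2 and reads ending in the last exon 12 and 5. In both genes the ratio between the libraries was larger at the first intron than in reads ending in the last exon, which were also fewer in replicate 2.

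Dnajb5, a class B gene, was higher in replicate 2, with 7 and 24 reads (log2 ratio 1.71, adjusted p 0.0205, exact binomial test). Its transcripts were in several forms, and Dnajb5-203 had 0 and 4 reads. The 100-base window richest in G and C reached 84% in Dnaja4-201, 86% in Dnajc21-201 and 82% in Dnajb5-203, beside a median of 74% in the chaperone genes and 74% in all tested genes. Peaks as high were also found in genes that were not called, with 91% in Dnajb14, 87% in Hspd1 and 82% in Hspe1, whose log2 ratios were -0.23, 0.08 and 0.0075. The part of base composition in these differences was not tested.

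The other genes under the adjusted p of 0.05 moved by less than 2-fold, with log2 ratios between -0.73 for Dnajb2 and 0.54 for Hspa4l. Hsp90b1, Hsp90aa1, Tcp1 and Cct7 were higher in replicate 2, with log2 ratios of 0.48, 0.43, 0.37 and 0.27. Hspa4l had 11 and 52 of its reads in the genomic class. Hspa5 was lower in replicate 2, with a log2 ratio of -0.43. Hspa5 and Hsp90b1, which both serve the endoplasmic reticulum, moved in opposite directions. Among 13 members of the endoplasmic reticulum the summed level was 1079 CPM in replicate 1 and 1083 CPM in replicate 2. Within 1.5-fold of each other in the 2 libraries were 43 of 45 chaperone genes with at least 100 reads (95.6%), beside 82.6% of all tested genes at that depth. Of a list of 12 genes known to rise on heat shock, which includes the constitutively high Hspa8, 11 were tested and none was called in either direction. Of these 11, Hsp90aa1 and Hspa4l were under the adjusted p of 0.05, the size-free limit that 12.8% of all tested genes passed. Over all tested genes 5.44% were called lower and 1.61% higher.

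Shares of the leading known transcript were set against each other by Fisher's exact test, in genes with at least 20 known reads in each library. None of 31 chaperone genes passed an adjusted p of 0.05, and 1.75% of all 2572 genes tested did. At an unadjusted p under 0.05 there was 1, Dnajb6, in which Dnajb6-203 held 88.6% in replicate 1 and 93.7% in replicate 2 (adjusted p 0.551, Fisher's exact test).

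The name rule also took Hspb11, with 34 and 30 reads, Hspbp1, with 172 and 186, and Hspbap1, none of which is a heat shock protein itself. Partner genes outside the name rule were taken from lists. Of 24 partners of Hsp70 and Hsp90, 23 were tested, of which 1 was lower and none higher, with a median log2 ratio of 0.07. Over all tested genes 5.44% were called lower and 1.61% higher. Hsbp1, a small binder of heat shock factor, had 802 and 851 reads, Stub1, a ubiquitin ligase that acts on clients of Hsp70, 486 and 550, and St13, an Hsp70 cofactor, 321 and 445. Bag1, an exchange factor of Hsp70, was lower in replicate 2 with 293 and 43 reads (log2 ratio -2.75, adjusted p 1.67e-44, exact binomial test).

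Of 14 prefoldin and tubulin-folding partners of TRiC, none was called in either direction, with a median log2 ratio of 0.13. Under the adjusted p of 0.05 were 3, a limit that 12.8% of all tested genes passed. With 5.44% of all tested genes called lower and 1.61% higher, counts in lists as short as these allow no reading. Pfdn5 had 741 and 943 reads, Tbcb 207 and 255, and Pfdn2 245 and 175. Of 13 partners in the endoplasmic reticulum, Canx, a lectin chaperone, was higher in replicate 2 with 212 and 481 reads (log2 ratio 1.18, adjusted p 4.03e-23, exact binomial test). Ppib had 226 and 260 reads and Calr 250 and 143. Of 7 mitochondrial partners none was called, and Grpel1, the exchange factor of mortalin, led with 175 and 184 reads, before Clpp with 144 and 165 and Clpb with 82 and 98.

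Near copies bear on a few of these counts. Of the 68 genes, 13 had another gene with at least 97% identity over at least 200 bases of the leading transcript, and for 10 of them a copy had reads. The copy with most reads was Gm15459, a processed pseudogene 99.7% identical to Hspa8 over 1941 bases, with 77 and 107 reads beside the 6115 and 6228 of Hspa8. Gm12346, 99.5% identical to Hsp90aa1 over 2255 bases, had 5 and 13. Gm20503, a gene identical to Dnajc25 over 349 bases, had 11 and 8 reads beside the 13 and 2 of Dnajc25, so the Dnajc25 count is uncertain. How the authors' assignment split reads between such genes is not given in the sources used here.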

How the data were processed

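Long-read RNA sequencing was read from 2 libraries of left cerebral cortex. Per the file headers, the deposited tables hold counts of whole reads for each transcript model, without normalization, together with other values, the exon number and length of each model. The deposited annotations give other values too, the positions of GENCODE M21 features and of models added by TALON on mm10. Per the deposited notes the counts came from an alignment to mm10; no source used here states the aligner, instrument or versions. Model classes were kept as deposited.

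Counts of all models of a gene were added and scaled to the library total. No source used here states molecular identifiers, so reads may not be independent molecules and tests cover counting error only. Genes with at least 10 reads were compared by the exact binomial test with 0.5 counts added to the ratio, and leading shares by Fisher's exact test (Python 3.11.15, SciPy 1.17.1). The summed chi-square per degree of freedom between the libraries was 4.15 in the chaperone genes and 7.06 in all tested genes, so the libraries differed by more than counting noise. Library factors from edgeR 4.0.16 (TMM) and DESeq2 1.42.0 were alternatives. Near copies were found with BLAST+ 2.17.0, and overlaps with bedtools 2.31.1. The tests were tested on simulated data. The reference transcript of a gene was its coding transcript with most known reads, and where a model ends was read from its most 3' exon. Sequences came from GENCODE M21 transcripts and RefSeq promoters (GRCm38.p6).

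The genes, lists and tests were chosen with earlier results of these data known. Named were: all TRiC subunits, the Hsp families, the 5 DnaJ genes of each class with most reads, called genes, genes with at least 50 known reads whose leading known transcript held under 60% in both libraries, the 5 with the highest share of reads on new structures among genes with at least 100 reads, the nearest to the read limit, the vesicle and clathrin DnaJ genes, and the 3 partners with most reads in each list. Genes with early ends, and the A-rich windows and the count of reads ending in the last exon, were chosen after their values were seen. Protein sequences were not used here. The result of 1 of the 8 marker lists is not reported here.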

Additional observations from a re-analysis of the deposited data

How the results depend on the processing

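With 2 libraries of 1 group, a difference between them can be set only against counting noise, and the libraries differed by more than that. The 2 genes called lower and 1 called higher in replicate 2 were the same genes with no read filter, at least 20 reads, 1 count added and same-strand overlap. They were also the same under DESeq2 size factors. Those factors were 1 in both libraries, so this setting was close to the main one by construction and is no separate check. With TMM factors 3 were lower (Dnajc25 added), and with spliced models only 3 were lower (Dnajc14 added). With known transcripts only, 1 was lower (Dnaja4) and 0 higher, since Dnajc21 and Dnajb5 then had too few reads to test. Counting known, NIC and NNC models, 1 leading share passed where 0 did on known transcripts. Hsp90ab1-201 held 89.0% of 372 such reads in replicate 1 and 76.7% of 223 in replicate 2 (adjusted p 0.00904, Fisher's exact test). All reads of Hsp90ab1 numbered 3243 and 3359. Shares called over all genes under these other settings are not given here, so the counts allow no reading about the chaperone genes. The summed level was 8723 CPM from known transcripts alone, and ranged from 14534 to 15122 CPM in the single libraries. Per kilobase, 35 of 68 genes moved by 5 or more ranks. Reads ending in the last exon, a count added after seeing the data, lowered 14 of 64 genes over 1.5-fold. Without either replicate no comparison of the libraries is left, so that was not run. No paired analysis was possible because the study holds a single group. Genes near 10 reads allow no firm order.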
